A study of Mus musculus with 2 samples.

Results

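The nuclear genes of oxidative phosphorylation (OXPHOS) were followed in mouse bone marrow multipotent progenitors. Members were taken by symbol: rows starting with Ndufa, Ndufb, Ndufc, Ndufs, Ndufv, Sdh, Uqcr, Cox4, Cox5, Cox6, Cox7, Cox8 or Atp5, without names ending in -ps. They came to 96 of the 27998 genes in the count matrix: 44 in complex I, 8 in complex II, 8 in complex III, 20 in complex IV and 16 in complex V. Of these, 82 are structural subunits and 14 are assembly factors or other proteins that carry the same prefixes. At least 50 UMIs (unique molecular identifiers, each standing for 1 captured RNA molecule) were counted for 92 members, and 4 had no UMI at all.

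The series holds 2 samples of multipotent progenitors, 1 labelled wild type and 1 labelled Spp1-/-, both on C57BL/6; Spp1 encodes the secreted phosphoprotein osteopontin. Both were taken 20 hours after thioglycollate was injected into the peritoneum, so there is no sample without this inflammatory stimulus. Cells were sorted as Lin–Sca-1+c-kit+CD34+Flt3L+, as the labels spell the gate, and run on the 10X single-cell assay that reads RNA from its 3' end. Neither the number of mice, any pooling nor their age is stated in the labels.

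Barcodes in the deposited matrix end in 1 of 2 suffixes, and no label states which suffix is wild type or Spp1-/-. The 2 sets of cells go by library 1 and library 2 here, with no value assigned to a genotype. Spp1 itself had 33 UMIs in the kept cells of library 1 and 1 in those of library 2. Whether these counts reflect the genotypes was not tested, and they were not used to assign them. With 1 library per genotype there are no replicates: every interval is an exact 95% interval that covers counting error only, and no p-value can be given. A difference between the libraries cannot be told apart from a difference between mice, sorts or preparations.

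Oxidative phosphorylation passes electrons from NADH and succinate through complexes I to IV to oxygen, and complex V uses the proton gradient that this builds to make ATP. Most subunits are encoded in the nucleus and imported, while a small set is transcribed inside the mitochondrion. Quiescent blood stem cells are known for relying little on respiration, and their proliferating progeny for relying on it more.

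After removal of 59 and 2 barcodes with fewer than 500 genes or at least 10% mitochondrial UMIs, 3253 cells were kept in library 1 and 4570 in library 2, with 10118499 and 18750468 UMIs. Median depth was 2830 UMIs and 1170 genes per cell in library 1 and 3836 UMIs and 1534.5 genes in library 2. The transcripts of the sort's own antigens were present at like levels: Cd34 at 413 and 457 counts per 1000000 UMIs (CPM), Ly6a, which encodes Sca-1, at 311 and 294, Flt3 at 122 and 141, and Kit at 36.1 and 36.6. Markers of T and NK cells summed to 0.988 and 1.01 CPM, with Cd3e, Cd3g and Ncr1 at 0 in both libraries. The summed dendritic cell markers stood at 794 CPM in library 1 and 234 in library 2, with Cd209a at 0 in both, and 50 and 29 cells carried at least 10 of their UMIs. Nearly all of this sum came from Cd74 (374 and 118 CPM) and the MHC class II genes H2-Ab1 (193 and 62.2), H2-Aa (137 and 30.3) and H2-Eb1 (87.2 and 20.7). Itgax stood at only 1.68 and 0.907 CPM and Siglech at 1.88 and 1.55 CPM. The list thus reads mainly Cd74 and MHC class II transcripts here. Ribosomal protein transcripts took 37.8% of UMIs in library 1 and 33.7% in library 2. Of the kept barcodes, 32 occurred in both libraries.

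OXPHOS transcripts were abundant in nearly the same amount in both libraries. They made up 371851 UMIs, or 3.67% of all UMIs, in library 1 and 658339 UMIs, or 3.51%, in library 2. The median cell held 102 and 131 of these UMIs, and no kept cell in either library was without any. Complex I contributed 11820 and 11424 CPM, complex IV 10097 and 8936, complex V 9819 and 10064, complex III 3880 and 3467, and complex II 1133 and 1220. Complexes I, IV and V thus held most of the list, and complex II the smallest share, at 3.08% and 3.47% of OXPHOS UMIs. A CPM here counts captured 3' ends and is not divided by gene length.

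**Figure D1:**
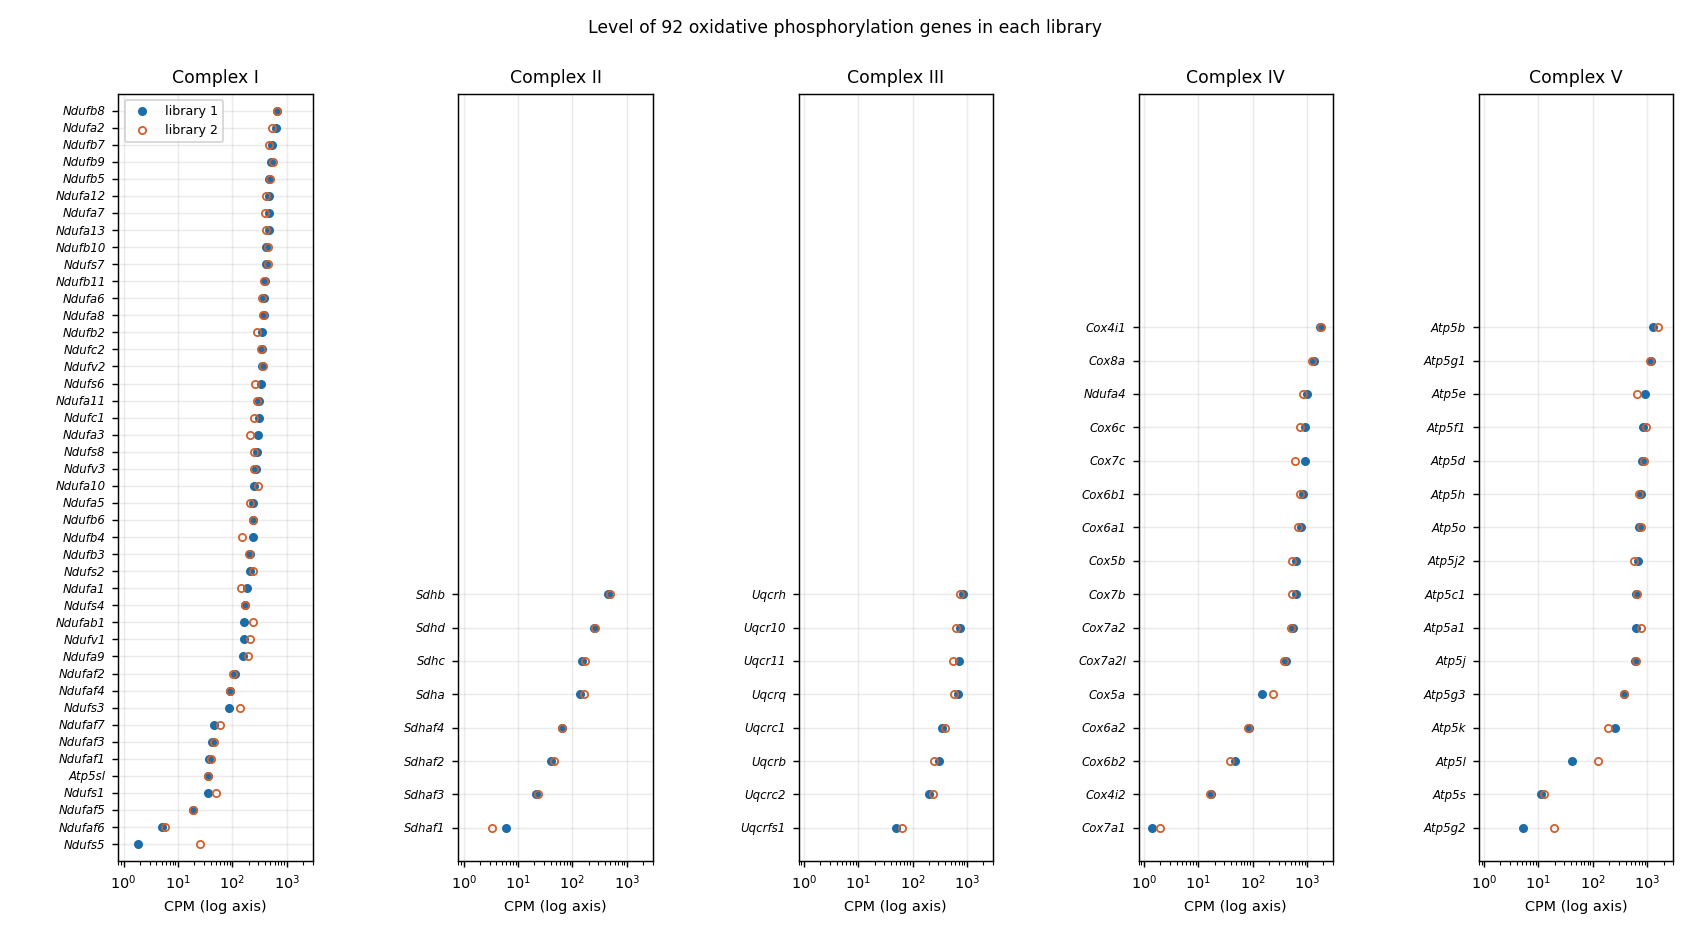
Level of each measured member in library 1 and library 2, in CPM on a log axis, grouped by complex; filled points are library 1 and open points library 2, and each row is 1 gene. Cox4i1 tops the list at 1720 and 1793 CPM, and most genes sit at nearly the same height in both libraries, with Ndufs5, Atp5g2 and Atp5l standing apart.

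In complex I, which oxidises NADH, the members with the most UMIs were accessory subunits, the proteins that surround the catalytic core. Ndufb8 was at 655 CPM (639 to 671) in library 1 and 667 CPM (655 to 679) in library 2, and a UMI was seen in 78.4% and 85.7% of cells. Ndufa2 followed at 629 and 540 CPM and Ndufb7 at 539 and 481 CPM. The 7 core subunits, which hold the flavin and iron-sulfur clusters, summed to only 1546 and 1719 CPM against 9886 and 9303 CPM for the 29 accessory subunits.

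Complex II, succinate dehydrogenase, links the chain to the tricarboxylic acid cycle. Its iron-sulfur subunit Sdhb stood at 455 and 485 CPM, the membrane anchors Sdhd at 253 and 264 CPM and Sdhc at 153 and 171 CPM, and the flavoprotein Sdha at 141 and 163 CPM. All 4 subunits had a higher point value in library 2. In complex III, which passes electrons from ubiquinol to cytochrome c, the small subunits led: Uqcrh at 844 and 752 CPM, Uqcr10 at 746 and 633 CPM, and Uqcr11 at 713 and 551 CPM. The Rieske iron-sulfur protein Uqcrfs1 was at 48.8 and 65.0 CPM.

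Complex IV, cytochrome c oxidase, held the gene with the most UMIs of the whole list, Cox4i1, at 1720 and 1793 CPM and detected in 96.9% and 98.5% of cells. Cox8a stood at 1366 and 1217 CPM and Ndufa4, named for complex I but a subunit of complex IV, at 1008 and 841 CPM. In complex V, the ATP synthase, the catalytic beta subunit Atp5b was at 1308 and 1603 CPM, the c-ring gene Atp5g1 at 1187 and 1136 CPM, and the small subunit Atp5e at 912 and 662 CPM. These 3 are parts of 1 enzyme, yet their levels relative to each other differed between the libraries: Atp5b was higher in library 2 and Atp5e higher in library 1.

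Promoter sequences were taken from RefSeq for 77 of the 96 members (mouse build GRCm38.p6, windows of 300 bases, 250 before and 50 after each start). To show what lies upstream of these broadly transcribed genes, the 120 bases before the start are printed for the most abundant member of each complex that has 1 window and a match to an ETS or NRF1 motif there. GABPA, an ETS factor, and NRF1 are known regulators of nuclear respiratory genes. Capitals mark the motif matches on either strand: CCGGAAG for ETS factors, GCGC, any base and TGCGC in a row for NRF1 and GGGCGG for the SP1 box. In order they lie at chr8:83566638-83566757 (plus strand), chr9:50603850-50603969, chr4:116075071-116075190, chr7:30626115-30626234 and chr2:174464102-174464221 (minus strand), and each is written 5′ to 3′ on the strand of its gene.
Ndufb7: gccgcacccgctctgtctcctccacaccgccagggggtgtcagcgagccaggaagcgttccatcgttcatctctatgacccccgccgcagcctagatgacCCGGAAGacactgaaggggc
Sdhd: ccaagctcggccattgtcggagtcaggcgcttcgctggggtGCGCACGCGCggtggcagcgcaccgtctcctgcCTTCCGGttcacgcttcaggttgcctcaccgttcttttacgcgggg
Uqcrh: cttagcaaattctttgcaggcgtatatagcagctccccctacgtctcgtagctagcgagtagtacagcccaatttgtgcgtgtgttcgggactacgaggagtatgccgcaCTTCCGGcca
Cox6b1: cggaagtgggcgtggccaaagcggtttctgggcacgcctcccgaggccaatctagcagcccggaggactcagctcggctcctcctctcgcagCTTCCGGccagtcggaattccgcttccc
Atp5e: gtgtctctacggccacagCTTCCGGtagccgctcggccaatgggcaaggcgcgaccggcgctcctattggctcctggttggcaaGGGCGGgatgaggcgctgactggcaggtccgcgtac

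Each of the 5 windows holds an ETS match, which the choice of windows fixed for either motif, and the Sdhd window also holds an NRF1 match 5′ of it; no marked matches overlap. Over whole windows, the NRF1 letters were found in 21 of 77 members (27.3%), against 13.1% of 7823 genes measured in these cells and 5.19% of 27025 genes in the table. They were spread unevenly over the complexes: 9 of 38 members of complex I, 4 of 7 of complex II, 1 of 5 of complex III, 1 of 14 of complex IV and 6 of 13 of complex V. The ETS letters were found in 20 members (26.0%), close to the 22.9% of measured genes. The YY1 letters ATGGCGGC were in 7 members (9.09%, against 6.48%), 6 of them in complex I and 1 in complex II. The SP1 box was less frequent than in measured genes, at 46.8% against 70.2%, while median GC content was 58.3% against 61.0%. Shares for the CCAAT box (42.9% against 43.6%), the TATAAA letters (10.4% against 7.75%) and the ERR element TCAAGGTCA (2 members, 2.60% against 0.332%) complete the motifs searched, on both strands. A match is a run of letters, not a shown binding site.

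Between the libraries the summed OXPHOS level differed little. It was 36750 CPM (36632 to 36868) in library 1 and 35111 CPM (35026 to 35195) in library 2, a log2 ratio of library 2 over library 1 of -0.066 (-0.072 to -0.060). The intervals do not overlap, so the gap exceeds counting error, but it has no replicate check. The libraries also differed in cell cycle: 16.9% of thinned cells of library 1 and 34.5% of library 2 were cell-cycle-high by the score described below, and the summed transcripts of G2 and mitosis stood at 1997 and 3326 CPM (log2 0.74). Within thinned cells low, middle and high for that score the OXPHOS ratio was -0.16, -0.11 and -0.10. Over all thinned cells, which leave out those under 2000 UMIs, it was -0.099. The median member had a log2 ratio of -0.015, while the median over all 10099 genes measured was 0.11, and 61 of 92 members lay below that all-gene median. An interval wholly below 0 was found for 40 members, against 7.29% of all measured genes, and wholly above 0 for 30 members, against 28.4%. The members have more UMIs than most genes (median 323 and 286 CPM against 16.2 and 17.7), so their intervals are narrower. At a size of at least 1.5-fold, 5 members were higher in library 2 (background 4.79%) and 3 were lower (background 2.46%), that is 8 in either direction (background 7.25%), a share close to that of all genes.

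The complexes did not move as a block. Complex IV was lower in library 2 by a log2 ratio of -0.18 (-0.19 to -0.16) and complex III by -0.16 (-0.18 to -0.14), whereas complex II was higher by 0.11 and complex V by 0.04. Within complex IV, 9 of the 11 commonly expressed subunits had intervals below 0 (7.29% of all genes), with a median of -0.19. Within complex I, 6 of 7 core subunits had intervals above 0 (28.4% of all genes; median 0.22), and 17 of 29 accessory subunits had intervals below 0 (7.29% of all genes; median -0.10). In complex V the 5 subunits of the F1 head, where ATP is made, had a median of 0.14. Core subunits of complex I and F1 subunits thus lay mostly on the side of library 2, and accessory subunits of complex I and the subunits of complex IV mostly on the side of library 1.

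The largest ratio belonged to Ndufs5, an accessory subunit of complex I (chr4:123712710-123718202, minus strand), with 19 UMIs in library 1 and 484 in library 2. Its level was 1.88 CPM (1.13 to 2.93) and 25.8 CPM (23.6 to 28.2), a log2 ratio of 3.78 (3.12 to 4.53). The next were Atp5g2, a c-ring gene, at 5.24 and 19.0 CPM (log2 1.86, 1.44 to 2.31), and Atp5l, a membrane subunit of ATP synthase, at 41.0 and 125 CPM (log2 1.61, 1.46 to 1.77). Cox5a, a subunit of complex IV, stood at 147 and 234 CPM (0.67, 0.58 to 0.75) and the core subunit Ndufs3 at 88.5 and 136 CPM (0.62, 0.51 to 0.73). For all 5 the intervals of the 2 libraries were apart, with library 2 the higher.

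At the other end, the accessory subunit Ndufb4 was at 241 CPM in library 1 and 153 in library 2 (log2 -0.66, -0.74 to -0.58), and the complex IV subunit Cox7c at 929 and 591 CPM (-0.65, -0.69 to -0.61). Ndufa3 of complex I (297 and 211 CPM), Atp5e (912 and 662) and Atp5k (253 and 191), small subunits of complex V in the latter cases, followed with log2 ratios of -0.49, -0.46 and -0.41. Sdhaf1, an assembly factor of complex II and the third member at least 1.5-fold lower, had only 60 and 62 UMIs (log2 -0.84, -1.38 to -0.31).

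Several of these genes have near-identical copies elsewhere in the genome, so their counts are uncertain. The last 300 bases of each member's transcripts were cut into runs of 50 bases and searched in 141767 annotated transcripts of other genes (GENCODE M21, the same genome build as mm10). A share of at least 40% of runs found elsewhere was seen for 6 members: Cox7c (73.3%), Atp5l (70.1%), Ndufs5 (54.6%), Ndufs3 (53.0%), Atp5g2 (41.4%) and Uqcrb (40.6%). Of these 6, 5 differed at least 1.5-fold between libraries (83.3%), against 2 of the 71 members that share no run (2.82%). Over all genes the same shares were 28.1% of 295 and 6.27% of 9285. The copies, such as the processed pseudogene BC002163 for Ndufs5 and the processed transcript Gm10012 for Cox7c, have no row of their own in the matrix. How reads from shared stretches were assigned in each library was not tested. As an example, a coding stretch that Ndufs5 shares base for base with BC002163 is printed. It holds 186 bases at transcript positions 381 to 566 of 680, lying in exons between chr4:123712824-123715946 on the minus strand. Only shared coding bases of the last 300 were taken, so full sharing is fixed by that choice and no base is capitalised. Its first base is where the search began, so the stretch does not show how far the overlap reaches.
Ndufs5: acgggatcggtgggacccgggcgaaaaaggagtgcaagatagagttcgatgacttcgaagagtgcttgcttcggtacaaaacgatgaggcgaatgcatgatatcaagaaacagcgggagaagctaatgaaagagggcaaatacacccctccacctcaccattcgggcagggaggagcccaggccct
Reads confined to this stretch cannot tell the copies apart. Some members also overlap another gene on the other strand, among them Atp5l, Cox5a, Ndufs3 and Sdhaf1.

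The library ratio of the members tended to rise with the length of their coding sequence, but the largest ratios did not follow this trend. Ndufs5, Atp5g2 and Atp5l, at log2 ratios of 3.78, 1.86 and 1.61, have short coding sequences of 318, 438 and 309 bases. Across the 71 members without shared runs, coding length and the library log2 ratio had a Spearman correlation of 0.74 (Pearson 0.66), and 0.69 over all 92 (Pearson 0.25). These are across genes of the same pair of libraries, which are not independent replicates, so they describe only this pair. Of the 20 members with up to 300 coding bases, 19 were lower in library 2, with a median log2 ratio of -0.25, and of the 10 with more than 1200 bases, 9 were higher, with a median of 0.26. The steps between were -0.13 (28 members, up to 450 bases), 0.058 (19, up to 600), 0.13 (10, up to 900) and 0.15 (5, up to 1200). Genes that are neither members nor ribosomal showed a smaller step at the short end: -0.078 up to 300 bases (176 genes), 0.038 up to 450 bases and 0.12 above 1200 bases. Over 9818 genes of all lengths the Spearman correlation was 0.028, and over the 1262 with at most 600 coding bases it was 0.20.

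**Figure D2:**
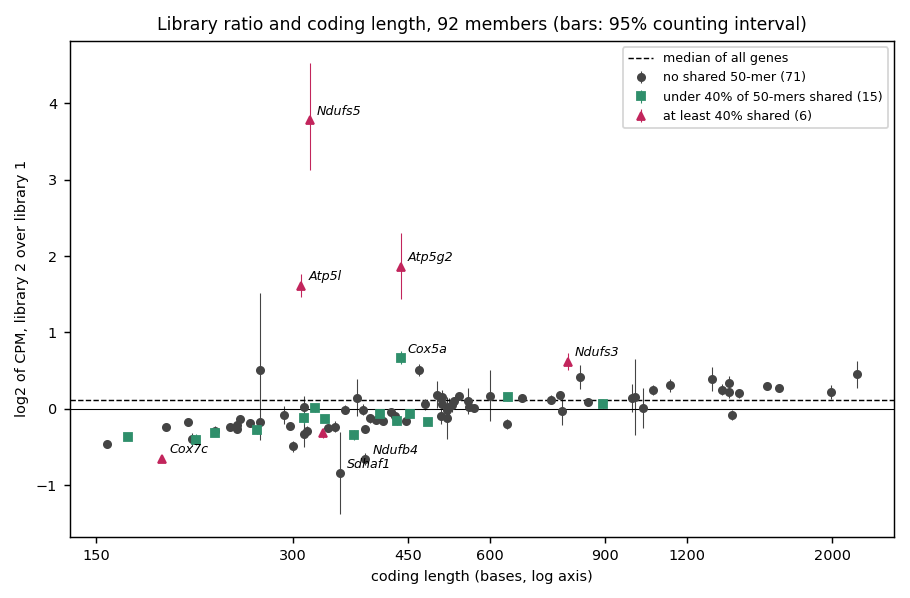
Log2 ratio of library 2 over library 1 against coding length in bases (log axis) for each measured member; each point is 1 gene with its 95% counting interval, and marker shapes show the share of 50-base runs found in other transcripts. Points climb from a median of -0.25 for the shortest members to 0.26 for the longest, with Ndufs5, Atp5g2 and Atp5l far above the rest.

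The direction of the summed library difference depended on the coding length of the members. The summed level of members with over 450 coding bases was higher in library 2, at a log2 ratio of 0.12. This split was chosen after seeing the data. Ribosomal protein transcripts, which are also short, were lower in library 2 as well (log2 -0.16), and the libraries differed in depth. The part of the ribosomal share in the OXPHOS difference was not tested. By depth, library 2 was lower in each of 5 bins, which are wide and do not equalise depth inside them. From the shallowest bin to the deepest, library 1 gave 30919, 34833, 37416, 39301 and 39495 CPM and library 2 gave 28764, 30919, 33710, 35914 and 37876 CPM for cells with under 2000, 2000 to 3000, 3000 to 4000, 4000 to 6000 and at least 6000 UMIs. In both libraries deeper cells thus had the larger OXPHOS share.

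To compare cells at equal depth, each cell with at least 2000 UMIs was thinned at random to 2000, which left out 809 and 554 shallower cells. The 2444 cells of library 1 then held a median of 74 OXPHOS UMIs (5th to 95th percentile 55 to 95, full range 36 to 124), and the 4016 cells of library 2 a median of 69 (50 to 89, 34 to 117). The ranges overlap almost wholly. The spread around the mean was narrow, with a coefficient of variation of 16.4% and 17.1% and a variance of 1.99 and 2.02 times the mean, where pure counting error gives a ratio of 1. The 13 listed transcripts encoded in the mitochondrion varied more, at 4.22 and 3.995 times their mean, and the myeloid list at 7.60 and 8.55 times. The mitochondrially encoded sum came mostly from mt-Nd1 (2006 and 2163 CPM), mt-Cytb (1788 and 1619) and mt-Nd4 (1407 and 1405). mt-Co2, mt-Co3 and mt-Atp6 had at most 15 UMIs each per library, and mt-Atp8 and mt-Nd4l had 0. All 50-base runs of mt-Co1 are shared. The sum thus says little of the mitochondrial subunits of complexes IV and V.

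Cells were next split by the thinned UMIs of fixed gene lists, none of which holds a member: 62 cell-cycle genes (32 of S phase, 30 of G2 and mitosis), 17 stem genes such as Hlf, Mecom and Procr, 10 lymphoid genes such as Dntt, Il7r and Rag1, and 10 myeloid genes such as Mpo, Ctsg and Elane. High means at or above the 75th percentile and at least 2 UMIs, low at or below the 25th percentile. Such a class is a range of a score and not a cell type, and many cells lie at the lower bound of the high class or 1 UMI below it, for example 183 and 428 for the cell-cycle score and 768 and 1192 for the stem score. Each contrast was made inside each library, so the second library repeats it. No doublet caller was run, and leaving out the 5% of cells with the most UMIs, an alternative added after seeing the data, kept the sign of the median member in every score contrast.

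The clearest difference was with the cell cycle. In library 1 the 414 high cells held 38295 OXPHOS CPM against 34895 in the 864 low cells, and in library 2 the 1384 high cells held 35704 against 31264 in the 882 low cells. The log2 ratios were 0.13 (0.11 to 0.15) and 0.19 (0.18 to 0.21), and the median member stood at 0.13 and 0.20 against 0.068 and 0.072 for all genes measured. Mitochondrial ribosomal proteins were higher in high cells too, 11917 against 10722 CPM in library 1 and 12343 against 10539 in library 2. Proteasome genes went the same way, 10572 against 9168 and 11002 against 10053 CPM, while the mitochondrially encoded sum, given below, was lower. The difference was thus not particular to OXPHOS genes. In the high cells 28 of 84 members (background 14.1%) and 47 of 89 members (background 18.3%) had intervals above 0, and 1 (background 4.97%) and 3 (background 9.88%) had intervals below. At a size of at least 25% higher the counts were 7 (background 22%) and 20 (background 25.2%), and at least 20% lower 4 (background 12.5%) and 1 (background 14.3%). Members have far more UMIs than most genes and thus narrower intervals, so the interval counts cannot be read as small differences being more frequent; differences of this size were no more frequent than among all genes. Of the 84 members measured in both libraries, 53 were higher in both (background 41.7%) and 8 lower in both (background 25.4%), and 25 had intervals above 0 in both (background 9.79%).

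All 5 complexes took part in each library, from 0.095 for complex I to 0.26 for complex II in library 1 and from 0.16 for complex III to 0.23 for complex V in library 2. Uqcrq, a small subunit of complex III, went from 539 to 703 CPM in library 1 and from 430 to 597 CPM in library 2 (log2 0.38 and 0.47). Cox7a2, the widely expressed form of complex IV subunit 7a, went from 482 to 624 and from 359 to 517 CPM (0.37 and 0.53). The anchor Sdhd went from 209 to 302 and from 227 to 284 CPM (0.53 and 0.33), and the NADH-binding core subunit Ndufv1 from 150 to 186 and from 159 to 232 CPM (0.31 and 0.54). For these 4 genes both intervals lay above 0.

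A few members went the other way. Cox7a2l, a relative of Cox7a2 that takes part in joining complexes III and IV into supercomplexes, was at 452 CPM in low and 414 in high cells of library 1 (log2 -0.13, -0.31 to 0.06) and at 506 and 357 in library 2 (-0.50, -0.64 to -0.37). Uqcrb of complex III, with its shared sequence, was lower in library 1 (-0.45, -0.69 to -0.22), while its interval in library 2 spans 0 (-0.08, -0.27 to 0.10). The assembly factors Ndufaf4 (-0.45 and -0.03) and Sdhaf4 (-0.22 and -0.16) had intervals that span 0 in both libraries. Assembly factors and other prefix-sharing genes together, Cox7a2l among them, were at -0.10 (-0.22 to 0.03) and -0.18 (-0.27 to -0.09). This sum leans on Cox7a2l, which over all kept cells held 416 of its 947 CPM in library 1 and 376 of 928 in library 2. The group was not summed without Cox7a2l, so the values do not show that assembly factors as a group differ from subunits.

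Transcripts encoded in the mitochondrion, as summed here mostly mt-Nd1, mt-Cytb and mt-Nd4, did not follow the nuclear members. Their sum was lower in cell-cycle-high cells, 4931 against 6209 CPM in library 1 (log2 -0.33, -0.38 to -0.28) and 5690 against 6138 CPM in library 2 (-0.11, -0.15 to -0.07). Cell-cycle-high cells also had fewer ribosomal protein UMIs (35.01% against 39.9%, and 32.4% against 37.1%) and more UMIs before thinning (median 3474 against 2800, and 4672 against 2789). In library 1 they held fewer dendritic markers, 349 against 1113 CPM; in library 2 the values were 268 and 274 CPM. With gating lists and ribosomal genes left out of the total, the median member stood at 0.038 and 0.12, and the median of all genes at -0.033 and -0.010.

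The S-phase and mitotic lists did not carry the difference equally. High over low for G2 and mitosis genes gave a summed log2 ratio of 0.16 (0.14 to 0.17) and 0.19 (0.17 to 0.20), and for S-phase genes 0.072 (0.052 to 0.091) and 0.075 (0.060 to 0.090). The contrast was sharpest for complex IV, at 0.19 and 0.20 for G2 and mitosis but -0.0016 (-0.039 to 0.036) and 0.0041 (-0.026 to 0.034) for S phase. Complex V was at 0.14 in both libraries for S phase and at 0.14 and 0.19 for G2 and mitosis. Intervals above 0 were found for 29 members (background 10.9%) and 50 members (background 16.8%) with the mitotic list, and for 19 (background 15.5%) and 27 (background 16.5%) with the S-phase list. Intervals below 0 were found for 3 (background 7.89%) and 3 (background 13.3%) with the mitotic list and for 6 (background 6.56%) and 6 (background 10.4%) with the S-phase list. Members at least 25% higher numbered 12 (background 21.5%) and 20 (background 21.7%) with the mitotic list and 6 (background 23.2%) and 7 (background 21.3%) with the S-phase list, and at least 20% lower 6 (background 15.8%) and 2 (background 16.8%), and 3 (background 12.9%) and 4 (background 16%). The difference between these 2 contrasts was not tested, and their cells overlap. Depth before thinning differed between them as well. Median UMIs of low and high cells were 3112.5 and 3164 in library 1 and 3932 and 4087 in library 2 for S phase. For G2 and mitosis they were 2745 and 4022 in library 1 and 3001 and 5174 in library 2. The part of depth was not tested.

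Single assembly factors of complex I, picked by size from the 8 listed, differed by phase. Ndufaf2 went from 78.6 in S-low to 143 CPM in S-high cells of library 1 and from 71.6 to 130 CPM in library 2 (log2 0.86 in both; it overlaps other genes on the other strand). For the mitotic list it stood at -0.38 and -0.27. Ndufaf4 was likewise higher with the S-phase list (74.4 to 122 and 82.0 to 102 CPM) and lower with the mitotic list (99.4 to 55.8 and 102 to 71.7 CPM), with intervals on one side of 0 in all 4 cases. Ndufaf3 was lower in S-high cells (52.4 to 22.4 and 53.8 to 35.7 CPM). Cox7a2l, counted here with the assembly factors, was lower in S-high cells as well (log2 -0.32 and -0.56). Among subunits, Ndufa6 (-0.32 and -0.38) was lower and Ndufa5 (0.36 and 0.42) and Sdhd (0.34 and 0.34) higher, with both intervals of each gene excluding 0. Uqcrq (0.42 and 0.39) and Cox7a2 (0.48 and 0.57) were higher with the mitotic list.

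**Figure D3:**
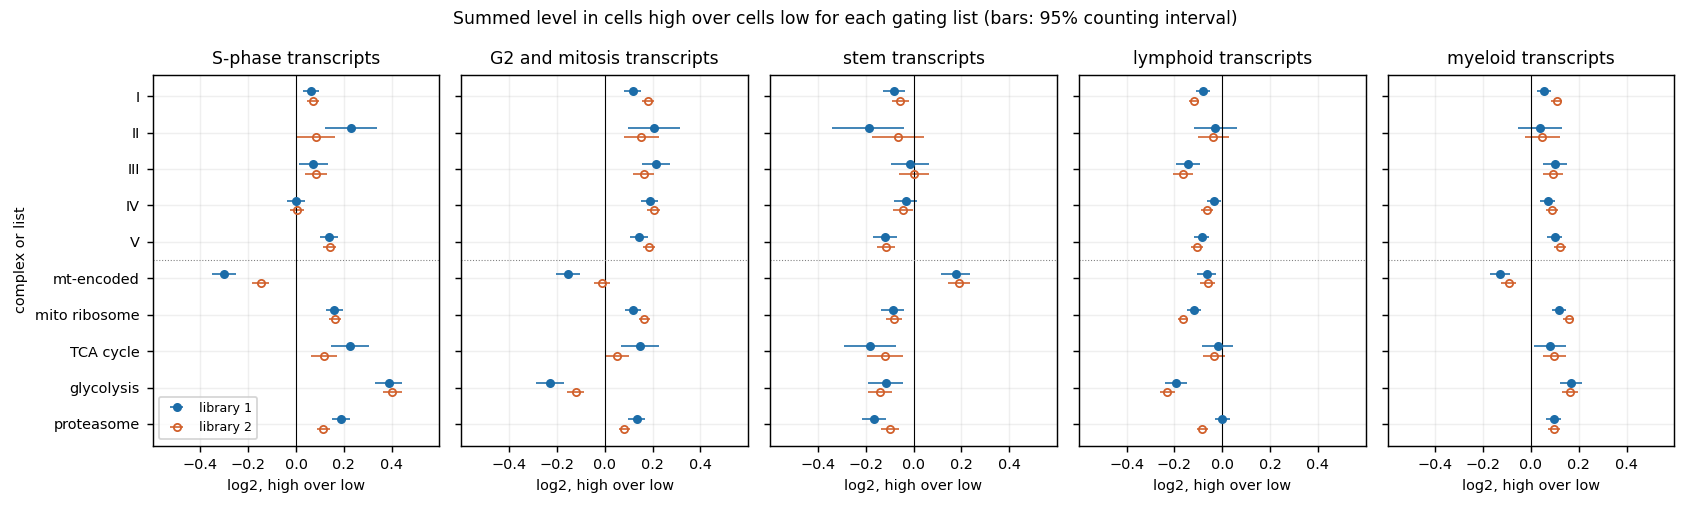
Log2 ratio of high over low cells (x axis) with 95% counting intervals for the summed level of each complex and of 5 other gene lists (rows), for S-phase, G2 and mitosis, stem, lymphoid and myeloid transcripts, in library 1 (filled) and library 2 (open). Complex IV sits at 0 for S phase and at 0.19 and 0.20 for G2 and mitosis; transcripts encoded in the mitochondrion lie below 0 for S phase (-0.30 and -0.15) and above 0 for stem transcripts (0.18 and 0.19).

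Stem-high cells had slightly lower OXPHOS levels. The 190 high cells of library 1 held 35303 CPM against 37177 in 1634 low cells (log2 -0.075, -0.10 to -0.049), and the 325 high cells of library 2 held 33206 against 34712 in 2741 low cells (-0.064, -0.084 to -0.044). The median member was at -0.055 and -0.078, against -0.031 and -0.016 for all genes. Intervals below 0 were found for 15 members (background 4.52%) and 10 members (background 4.44%), and above 0 for 3 (background 3.61%) and 7 (background 4.75%). Members at least 20% lower numbered 12 of 86 (background 23.3%) and 3 of 89 (background 19.3%), and at least 25% higher 8 (background 18.2%) and 2 (background 17.8%), all below the share among all genes. Of 86 members 40 were lower in both libraries (background 31.8%) and 15 higher in both (background 25.1%).

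Complex V showed the difference most evenly, at -0.12 in both libraries (10000 to 9200 and 9958 to 9189 CPM), while complex III did not differ beyond counting error (-0.016, -0.095 to 0.063, and 0.0018, -0.062 to 0.065). Of the 86 members measured in both libraries, 6 had intervals below 0 in both, 3 of them in complex V, and 0 had intervals above 0 in both. The like share of all genes was not counted. Among the 8 members picked by size, only Cox6a2 and Sdhd had intervals below 0 in both libraries. Sdhd was at 261 and 189 CPM in library 1 (-0.46, -0.83 to -0.12) and at 269 and 225 CPM in library 2 (-0.26, -0.51 to -0.01). Transcripts encoded in the mitochondrion were higher in stem-high cells, at 0.18 and 0.19. Stem-high cells had somewhat more ribosomal UMIs (38.8% against 37.2%, and 34.8% against 33.8%), and the erythroid markers beside them stood at 213 against 70.4 CPM and 87.7 against 46.0 CPM. Before thinning, stem-high cells were shallower than stem-low cells (median 3079 against 3267 and 3558 against 4229 UMIs).

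Lymphoid-high and myeloid-high cells lay on opposite sides. Lymphoid-high cells held 35670 CPM against 37564 in library 1 (644 and 1310 cells) and 32957 against 35372 in library 2 (1236 and 1924 cells), at -0.075 (-0.091 to -0.059) and -0.10 (-0.11 to -0.090). Intervals below 0 were found for 17 members (background 8.08%) and 39 members (background 11.7%) and above 0 for 2 (background 6.52%) and 4 (background 7.74%), and 55 of 86 members were lower in both libraries (background 39.4%). Myeloid-high cells held 38052 CPM against 36118 (843 and 777 cells) and 35842 against 33380 (1299 and 1280 cells), at 0.075 (0.059 to 0.092) and 0.10 (0.089 to 0.12). Here intervals above 0 were found for 22 members (background 7.75%) and 27 members (background 9.87%) and below 0 for 2 (background 5.01%) and 3 (background 7.72%), and 48 of 86 were higher in both libraries (background 35.8%). By size, 5 (background 17.4%) and 7 (background 15.5%) members were at least 20% lower and 2 (background 11.8%) and 3 (background 11.6%) at least 25% higher in lymphoid-high cells. In myeloid-high cells 4 in each library (background 13.7% in both) were at least 25% higher and 1 (background 11.5%) and 2 (background 13.1%) at least 20% lower. The differences were thus shared by many members and small in each.

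With the lymphoid score, complex III differed most, at -0.14 and -0.16. Its small subunits Uqcr10 (801 to 649 and 656 to 511 CPM), Uqcrq (702 to 582 and 620 to 480) and Uqcrb (331 to 266 and 268 to 220) were lower in both libraries, with log2 ratios between -0.27 and -0.37 and intervals below 0. Ndufa1, a small membrane subunit of complex I, was lower as well (log2 -0.32 and -0.29). With the myeloid score, Uqcrq (582 to 734 and 506 to 632 CPM) and the c-ring genes Atp5g1 (1142 to 1320 and 981 to 1199 CPM) and Atp5g3 (350 to 421 and 331 to 391 CPM) were higher. Uqcrh went the other way, 879 to 775 and 789 to 731 CPM.

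Cox7a2l again ran against its complex: with the myeloid score it stood at -0.15 (-0.30 to 0.01) and -0.35 (-0.48 to -0.22), with the lymphoid score at 0.11 (-0.04 to 0.26) and 0.32 (0.21 to 0.44). Glycolysis genes were lower in lymphoid-high cells too (-0.19 and -0.23) and higher in myeloid-high cells (0.17 and 0.16), so the difference was not particular to OXPHOS genes. Before thinning, lymphoid-high cells were shallower than lymphoid-low cells (median 2952 against 3381.5 and 3779.5 against 4305 UMIs). Myeloid-high cells were deeper than myeloid-low cells (median 3658 against 3014 and 4897 against 3618 UMIs). The part of depth in these contrasts was not tested. Myeloid-high cells held more dendritic markers in library 1 (897 against 321 CPM) and fewer in library 2 (251 against 304). Without the cells rich in those markers, an alternative added after seeing the data, the medians of all these contrasts kept their direction.

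When the lineage scores were crossed with the cell cycle, each lineage class was higher in cell-cycle-high than in cell-cycle-low cells in both libraries. Cells high for the myeloid list only went from 36278 to 40538 CPM in library 1 and from 32852 to 36938 in library 2, and cells high for the lymphoid list only from 33670 to 36282 and from 30419 to 33897. Cells high for none of the lineage lists went from 35084 to 38470 and from 31580 to 36164 CPM. Cells high for the stem list only went from 34298 to 37154 and from 32183 to 34861 CPM, but only 13 such cells of library 1 were cell-cycle-high. In library 1 this order depended on the total used. With gating lists and ribosomal genes left out, stem-only cells were at -0.041 when cell-cycle-high and -0.025 when low, as log2 over all cells. Lymphoid-only cells of library 1 were then nearly level, at -0.057 and -0.064. Over all cycle states, the order was led by myeloid-only cells at 38395 and 36426 CPM, with lymphoid-only cells at 35279 (34909 to 35653) and 32670 (32415 to 32927) and stem-only cells at 35068 (34316 to 35832) and 33492 (32920 to 34072). The last pair do not differ beyond counting error in library 1, and in library 2 stem-only cells were above lymphoid-only cells.

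**Figure D4:**
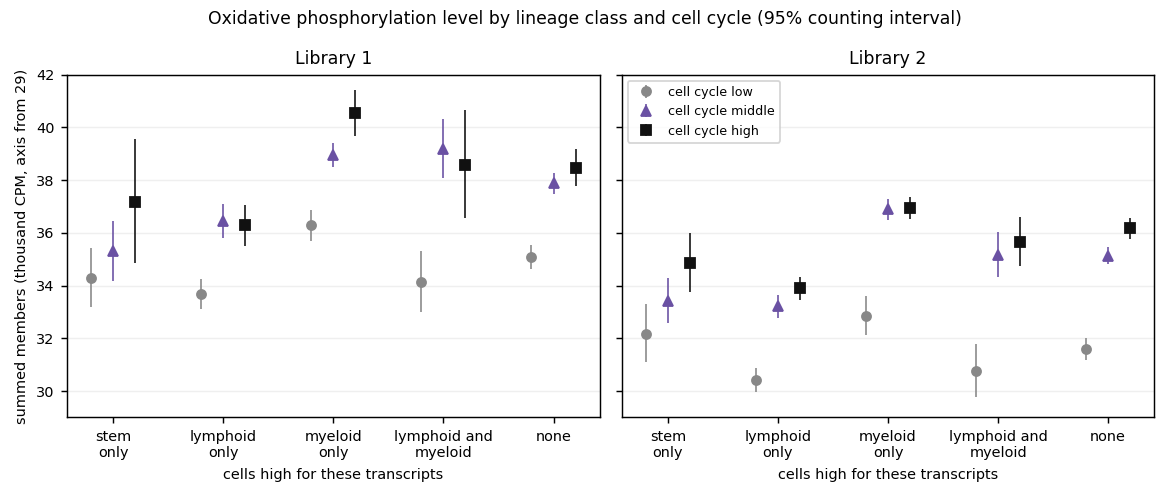
Summed OXPHOS level (y axis, 1000 CPM of cells thinned to 2000 UMIs, axis not from 0) with 95% counting intervals for each lineage class, split into cells low, middle and high for the cell-cycle lists, by library. In every class drawn the cell-cycle-high point is above the low point, and myeloid-only cells reach the top in both libraries at 40538 and 36938 CPM.

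The widest departure from this narrow range was that of Cox6a2 with the lymphoid score. Cox6a2 encodes the heart and muscle form of complex IV subunit 6a, and Cox6a1 the widely expressed form. Cox6a2 lies at chr7:128205435-128206387 on the minus strand. It stood at 86.8 CPM (81.1 to 92.7) in library 1 and 81.9 CPM (77.9 to 86.1) in library 2, so the libraries did not differ beyond counting error, and it made up 10.2% and 10.6% of the UMIs of the pair. In lymphoid-high cells, however, it was at 255 CPM against 32.8 in lymphoid-low cells of library 1 and at 210 against 27.8 in library 2. The log2 ratios were 2.96 (2.61 to 3.32) and 2.92 (2.62 to 3.23), larger than for any other of the members with at least 200 UMIs in that contrast.

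The level of Cox6a2 climbed with the number of lymphoid UMIs per cell. At 0, 1, 2 to 4, 5 to 9 and at least 10 lymphoid UMIs it was 32.8, 51.02, 172, 308 and 837 CPM in library 1 and 27.8, 40.9, 117, 330 and 495 CPM in library 2. Its share of the Cox6a pair went from 4.01% to 60.3% (51.6% to 68.6%) and from 3.92% to 46.8% (40.2% to 53.4%). In the top class of library 1 the muscle form thus outnumbered the common form, and in library 2 the interval includes equal amounts. At least 1 Cox6a2 UMI was seen in 5.11% of cells without a lymphoid UMI and in 63.3% of those with at least 10 in library 1, and in 4.68% and 56.9% in library 2, all at 2000 UMIs per cell. Before thinning the cells at the top were the shallower ones, with medians of 2440 against 3382 and 3251 against 4305 UMIs.

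The order was also seen with parts of the lymphoid list. Split by Dntt alone, which encodes the terminal transferase of early lymphoid cells, Cox6a2 went from 38.2 CPM at 0 UMIs to 405 CPM at 5 or more in library 1 and from 32.9 to 370 CPM in library 2. Dntt made up most of the lymphoid list, 492 of 626 CPM in library 1 and 596 of 744 in library 2. Its split is thus nearly that of the whole list and is no separate check. Split by Il7r, Ly6d, Rag1 and Rag2 together, which leaves Dntt out, Cox6a2 went from 71.5 to 569 and from 64.5 to 475 CPM in the same cells. With the myeloid score it ran the other way, from 189 CPM at 0 UMIs to 80.5 at 10 or more in library 1 and from 156 to 65.1 CPM in library 2. Stem-only cells held 16.9 CPM (4 UMIs) and 7.69 CPM (3 UMIs). Cells rich in the dendritic marker list, which reads mainly Cd74 and MHC class II genes, held 11 of the 878 Cox6a2 UMIs in library 1 and 19 of 1536 in library 2. Siglech, a marker of plasmacytoid dendritic cells, had only 19 and 29 UMIs in all. In the few thinned cells with a Siglech UMI, however, Cox6a2 was high: 1200 CPM (620 to 2096) in 5 cells of library 1 and 708 CPM (413 to 1134) in 12 cells of library 2, against 92.9 and 84.9 CPM in the rest. A Cox6a2 UMI was seen in 5 of those 5 and 8 of those 12 cells, which held 12 and 17 of its thinned UMIs against 453 and 680 elsewhere. Itgad, which overlaps Cox6a2 on the other strand, had 3 UMIs in each library.

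**Figure D5:**
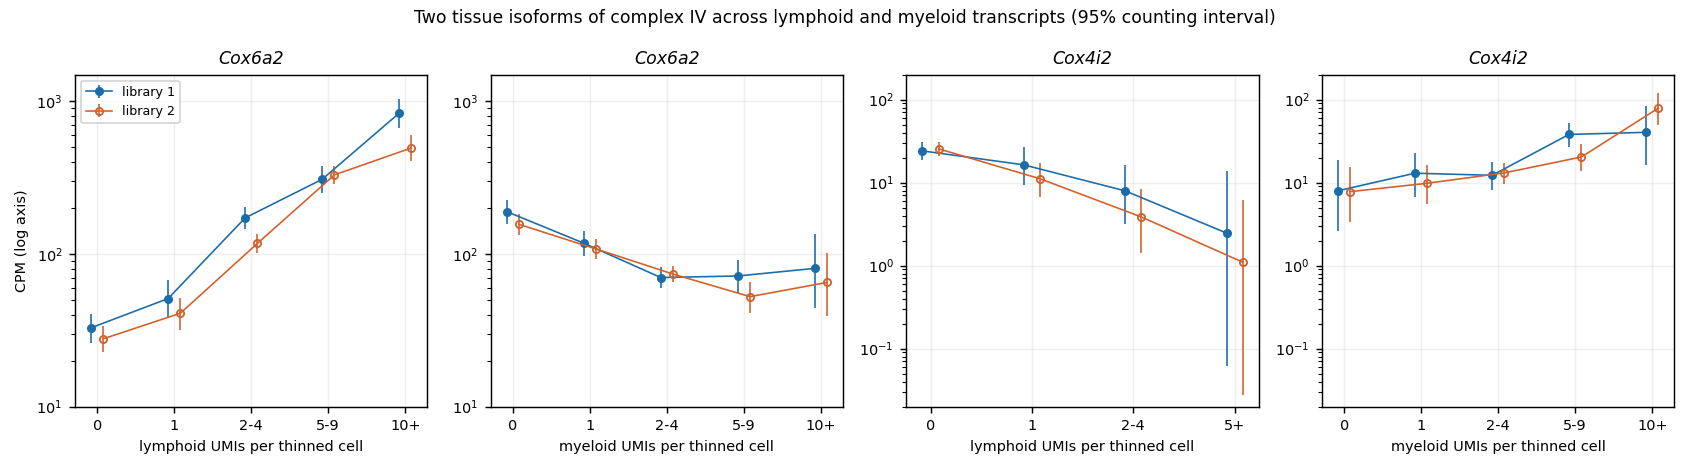
Level of Cox6a2 and Cox4i2 in CPM of thinned cells (log axis) against the number of lymphoid or myeloid UMIs per cell, with 95% counting intervals, by library. Cox6a2 climbs with lymphoid UMIs to 837 and 495 CPM, while Cox4i2 is higher in cells with more myeloid UMIs and near 0 in lymphoid-rich cells.

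The other tissue forms of complex IV were scarce. Cox4i2, the form of subunit 4 known from lung and from cells at low oxygen, made up 1.01% and 0.890% of the Cox4 pair. It stood at 24.0 and 25.5 CPM in cells without lymphoid UMIs, against 1 UMI in each library in all cells with 5 or more (2.46 CPM, 0.062 to 13.7, and 1.096 CPM, 0.028 to 6.11). With myeloid UMIs it went from 7.96 CPM (2.59 to 18.6) at 0 to 40.2 CPM (16.2 to 82.9) at 10 or more in library 1 and from 7.77 (3.35 to 15.3) to 78.8 CPM (49.9 to 118) in library 2, where those intervals are apart; in library 1 they overlap. Along the lymphoid score Cox4i2 and Cox6a2 thus ran in opposite directions. Cox4i2 was not particular to the myeloid range. Stem-only cells held 38.1 CPM (17.4 to 72.4) and 17.9 CPM (7.22 to 37.0) of it, and myeloid-only cells 31.9 and 30.3 CPM. Cells high for both the lymphoid and myeloid lists held Cox6a2 at 169 and 165 CPM, against 46.8 and 41.9 CPM in myeloid-only cells. Cox6b2, the testis form of subunit 6b, made up 5.34% and 4.86% of its pair and did not follow the lymphoid list (48.5 CPM at 0 and 36.9 at 5 or more UMIs in library 1, 34.8 and 36.2 in library 2).

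Cox7a1, the muscle form of subunit 7a, had 14 and 37 UMIs, 0.251% and 0.394% of its pair. No UMI was counted for Cox8b, Cox8c, Cox7b2 or Ndufa4l2; 3 counts set a limit of 0.296 CPM in library 1 and 0.160 CPM in library 2, for counting error only. Relative to Cox8a, Cox8b and Cox8c could make up to 0.0217% and 0.0131%. The c ring of ATP synthase is encoded by Atp5g1, Atp5g2 and Atp5g3, which give the same mature protein: Atp5g3 made up 24.3% of their UMIs in both libraries and Atp5g2, with its shared sequence, 0.333% and 1.2%.

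The wider respiratory programme can be set beside these members. Cytochrome c (Cycs, 123 and 194 CPM, log2 0.66) and cytochrome c1 (Cyc1, 100 and 165 CPM, 0.72), which belong to the chain but not to the symbols chosen, were higher in library 2, while the small ATP synthase subunit Usmg5 was lower (214 and 114 CPM, -0.91). Summed transcripts encoded in the mitochondrion were at 5885 and 6021 CPM (0.03), tricarboxylic acid cycle enzymes at 2202 and 2631 (0.26), glycolysis at 4452 and 5564 (0.32; median gene 0.15) and mitochondrial ribosomal proteins at 11468 and 12229 (0.09). Much of the glycolysis sum's difference lay in Gapdh (369 and 873 CPM) and Eno1 (53.2 and 176 CPM), which share 82.9% and 90.04% of their 50-base runs with other transcripts. The 13 regulators listed were all below 100 CPM: Tfam at 86.9 and 98.6, Nrf1 at 26.4 and 33.3, Gabpb1 at 26.0 and 34.1, Gabpa at 8.20 and 11.9, Esrra at 4.64 and 5.44, and Ppargc1a at 0.692 and 0.480 CPM. Members with NRF1 letters in the promoter window had median cell-cycle log2 ratios of 0.18 and 0.22 in libraries 1 and 2, against 0.12 and 0.18 without. For the other motifs split this way the order was reversed or nearly level: ETS 0.13 and 0.19 with against 0.14 and 0.19 without, SP1 box 0.092 and 0.15 against 0.16 and 0.22, and YY1, with 7 members, 0.0089 and 0.071 against 0.14 and 0.21.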

How the data were processed

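Per the submitters' processing notes, reads were processed with Cell Ranger 1.1 against mm10; no annotation or settings are named there. The deposited matrix holds raw UMI counts per gene and barcode, as the authors made them. Members and gene lists were chosen with earlier results of these data known. Cells with at least 500 genes and under 10% mt- UMIs were kept, counts were summed per library and divided by all UMIs, and ratios of sums got exact conditional Poisson 95% intervals, shares of cells exact Clopper-Pearson ones (Python 3.11.15, scipy 1.17.1). A gene was measured with at least 50 UMIs in the cells compared and 1 in each side. Scores used cells thinned to 2000 UMIs (seed 1); the code was tested on simulated counts. Coding lengths came from GENCODE M21. Alternatives included TMM scaling (edgeR 4.0.16) and other cell filters, totals, percentiles and seeds. Genes named were, by rule, the 3 with the most UMIs per complex, the 5 largest and 5 smallest library ratios among those with at least 200 UMIs, tissue isoforms, the 4 largest and 4 smallest per score, regulators, and members without UMIs; others named (Uqcrfs1, Sdhaf1, Sdhc and Sdha) were chosen after their values were seen. No sample was assigned to a barcode ending.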

Additional observations from a re-analysis of the deposited data

How the results depend on the processing

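No paired analysis was possible because each genotype has 1 library and the results come from no test; for the same reason no replicate could be left out. Of the results that answer a comparison, 141 values under alternatives stayed near the reported one, 41 moved and 2 reversed; the medians of the score contrasts kept their sign in every alternative run. The summed OXPHOS log2 ratio between libraries was -0.094 with at least 1000 genes and under 5% mitochondrial UMIs, -0.16 with TMM scaling, -0.16 without ribosomal genes in the total, -0.13 with equal cells per depth bin (2911 each), -0.039 without members that share 50-base runs, and reversed to 0.12 with members over 450 coding bases, for which the median was 0.14. The median member's library ratio, -0.015 as reported, was 0.011 without members that share runs. Members at least 1.5-fold higher in library 2 numbered 3 with TMM, 3 without ribosomal genes, 0 without members that share runs and 1 with those over 450 bases, where 0 were lower. For the cell-cycle score the median was 0.26 and 0.32 in libraries 1 and 2 without thinning, 0.038 and 0.12 with a total without gating and ribosomal genes, and 0.060 and 0.075 with the S-phase list alone. The stem median in library 2 was -0.035 with another seed; the lymphoid median in library 1 was -0.16 at the 90th and 10th percentiles and -0.051 in cell-cycle-low cells. The myeloid median was 0.12 and 0.16 at those percentiles, 0.14 and 0.15 without thinning, and 0.038 in cell-cycle-low cells of library 2. Class levels are log2 over all cells. With another seed, stem-only cell-cycle-low cells were at -0.16 and myeloid-only high cells at 0.088 in library 1, and lymphoid and myeloid high cells of library 2 reversed to -0.0028 (0.049 as reported). With the total without gating and ribosomal genes, libraries 1 and 2 gave -0.025 and -0.033 for stem-only low cells, -0.064 and -0.097 for lymphoid-only low, 0.073 and 0.062 for myeloid-only high, -0.048 and -0.099 for lymphoid and myeloid low, -0.022 and -0.079 for none low and 0.0087 and 0.037 for none high; lymphoid-only high cells were at -0.057 in library 1 and myeloid-only low cells at -0.037 in library 2. Stem-only cell-cycle-high cells, at 0.0093 and 0.016, changed sign with that total and with another seed. The cause of these changes was not tested. Depth limits the rarer members: below 0.296 and 0.160 CPM no level could be told from 0.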

Other observations

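Glycolysis genes, which make ATP outside the mitochondrion, differed by cell-cycle phase where the OXPHOS sum did not change sign. Their summed level was 3884 CPM in S-low and 5081 CPM in S-high cells of library 1 and 4597 and 6080 CPM in library 2 (log2 0.39, 0.33 to 0.44, and 0.40, 0.36 to 0.44). With the list of G2 and mitosis it was lower in high cells, 4541 against 3871 CPM (-0.23, -0.29 to -0.17) and 5432 against 4991 CPM (-0.12, -0.16 to -0.09). The median glycolysis gene was at 0.36 and 0.23 for S phase and at -0.12 and -0.092 for G2 and mitosis. Cells high in mitotic transcripts thus held more OXPHOS and fewer glycolysis transcripts than cells low in them, and cells high in S-phase transcripts held more of both. Transcripts encoded in the mitochondrion were lower in S-high cells, 5077 against 6254 CPM and 5699 against 6318 CPM. These values were picked after they were seen, and the difference between the phases was not tested.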
